A study of Mus musculus with 4 samples.

Results

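The oligoadenylate synthetase (Oas) family was examined in RNA-Seq libraries of mouse retina in which miR-124-3p had been inhibited. Its members here are the 8 genes Oas1a, Oas1b, Oas1c, Oas1g, Oas2, Oas3, Oasl1 and Oasl2, out of 48897 genes listed in the deposited table. The members were chosen by gene symbol, with the counts of the anti-miR-124 and NC libraries already known, and the choice rests on the very comparison described below. Their values in that comparison are therefore a description, and no p-value is given for them.

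The retinas came from wild-type mice, labelled C57BL/6 and given as C57BL/6J in the study's methods. Each left eye received 0.6 nmol of a miR-124-3p antagomir, an antisense oligonucleotide against the mature microRNA, in 1 μl on postnatal day 3 (anti-miR-124 group). Each right eye received the same amount of a scrambled sequence (NC group). Pools of mixed retinas, from at least 2 litters for each group, were harvested on postnatal day 9, which was 6 days after the injection. There are 2 libraries per group. The table names them by eye and by a number, and each number occurs once in each group. The libraries of 1 number are called NC-A and anti-A here and those of the other NC-B and anti-B, so A and B stand for the pairs, as replicate numbers in the labels cannot be matched to them. The antagomir and the left eye cannot be told apart in this design, and there is no eye without an injection. In a whole retina, a change in the number of cells that hold a transcript and a change in the amount per cell cannot be told apart either.

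The libraries held 16317239 to 18726963 counts on genes. Levels are given as TPM, in which counts are divided by gene length and scaled to the same sum in each library, and 1 count on a gene of 1 kb corresponded to 0.176 to 0.192 TPM. Rod markers such as rhodopsin were abundant in every library, with a summed level of 7373 to 8681 TPM. Some libraries stood apart from the rest. In NC-A, lens markers took 5.25% of all TPM, against at most 0.0152% in the others. In anti-B, the summed levels of microglia and of blood leukocyte markers were far above the other libraries, as described with the values they accompany.

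OAS proteins are sensors of double-stranded RNA, a molecule that arises during viral replication and also from the cell's own repeats and mitochondria. On binding it, the active members join ATP into chains with unusual 2′-5′ bonds, called 2-5A, a second messenger of the antiviral response. Interferon raises the transcription of most family members through the factor ISGF3, which holds STAT2 and IRF9 and binds the interferon-stimulated response element (ISRE) in promoters. Mice have 1 gene each for Oas2 and Oas3, a group of Oas1 genes made by duplication, and a pair of Oas-like genes whose proteins also carry ubiquitin-like domains.

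All 8 genes lie on chromosome 5, on positions that match GRCm38. The Oas cluster spans chr5:120730333-120921648, which is 191.3 kb with 10 genes. Its members in order are Oas2 (chr5:120730333-120749874, minus strand), Oas3 (chr5:120753098-120777659, minus), Oas1c (chr5:120800194-120812540, minus), Oas1b (chr5:120812635-120824163, plus), Oas1g (chr5:120876142-120887613, minus) and Oas1a (chr5:120896256-120907544, minus). The cluster also holds Oas1e, Oas1f, Oas1h and Oas1d, which are family genes outside the members. The Oasl cluster, 5.792 Mb before it, holds Oasl2 (chr5:114896934-114912245, plus) and Oasl1 (chr5:114923177-114937912, plus) within 40.98 kb. Oas1b is listed as a transcribed pseudogene, and its reading frame is known to end early in laboratory strains such as C57BL/6. The other members are listed as protein coding. Oas1c and Oas1b are transcribed away from each other, with 94 bases between their listed spans.

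The promoter sequences are shown because the members differed widely in how they compared between the groups, and because the ISRE is the element through which interferon acts on this family. RefSeq promoter windows of GRCm38.p6, from 250 bases before to 50 bases after each start site, were found for 6 of the 8 members, and Oas2 and Oas1b had no entry. The letters searched were GAAANNGAAA, the core of an ISRE, on both strands. They occurred in 3.44% of all 32851 windows (1131) and in 4 of the 6 members. In the stretches below, written 5′ to 3′ along the gene's own strand, the matched bases are in capitals, and overlapping matches run together.
Oas1a, chr5:120907500-120907575, minus strand: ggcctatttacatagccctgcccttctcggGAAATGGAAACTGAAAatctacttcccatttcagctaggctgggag
Oas1g, chr5:120887586-120887661, minus strand: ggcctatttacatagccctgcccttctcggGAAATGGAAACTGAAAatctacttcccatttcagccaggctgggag
Oas1c, chr5:120812583-120812658, minus strand: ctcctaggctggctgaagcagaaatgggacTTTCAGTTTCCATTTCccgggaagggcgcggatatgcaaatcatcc
Oas3, chr5:120777695-120777764, minus strand: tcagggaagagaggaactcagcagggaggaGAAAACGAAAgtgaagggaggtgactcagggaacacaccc
Oas1a and Oas1g shared 75 of 76 bases here. Their matches lay at positions -20 to -5 and -18 to -3 from the start site, and each consisted of a pair of overlapping cores. The deposited table starts Oas1a within its match, as it places the start of the gene farther upstream than RefSeq does. The capitals of Oas1c are the same 16 bases read on the other strand, at positions -114 to -99, which is chr5:120812613-120812628. This places them between Oas1c and Oas1b, 7 to 22 bases before the listed start of Oas1b and 73 to 88 bases before that of Oas1c. Oas3 held a single core at positions -75 to -66.

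A longer form, GAAANNGAAACT, occurred in 0.27% of all windows (89) and in 3 of the 6 members, which were Oas1a, Oas1g and Oas1c. It overlaps the core matches. The letters TTCNNNGAA, the GAS element of interferon gamma signalling, occurred in 8.3% of all windows and in 1 member, Oas1a, at positions -98 to -90. The windows of Oasl2 and Oasl1 held none of these letters. They are shown from 100 bases before the start site to 50 bases from it, since these genes were among the most different between the groups. The listed start of Oasl1 (chr5:114923177) is farther upstream than in RefSeq and lies within the stretch shown. That the letters are missing concerns these windows only, and a match is not shown to be a bound site.
Oasl2, chr5:114896834-114896983, plus strand: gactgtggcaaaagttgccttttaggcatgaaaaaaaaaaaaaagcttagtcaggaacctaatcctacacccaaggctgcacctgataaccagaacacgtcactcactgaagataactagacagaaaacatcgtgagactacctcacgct
Oasl1, chr5:114923140-114923289, plus strand: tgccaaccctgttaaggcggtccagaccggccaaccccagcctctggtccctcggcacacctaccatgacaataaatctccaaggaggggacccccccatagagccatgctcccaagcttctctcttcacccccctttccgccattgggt

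The family was at a low level in the NC group. The summed TPM of the 8 members was 6.26 in NC-A, 28.4 in anti-A, 7.67 in NC-B and 62.3 in anti-B. Both antagomir libraries were thus above both controls, 4.54-fold within pair A and 8.13-fold within pair B. The group means were 45.4 ± 24.0 TPM (SD, n = 2) for anti-miR-124 and 6.97 ± 0.999 TPM (SD, n = 2) for NC, a ratio of 6.52. Without anti-B the ratio was 4.08, and without NC-A it was 5.92. In raw counts the family had 119 in NC-A, 460 in anti-A, 155 in NC-B and 1063 in anti-B.

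**Figure D1:**
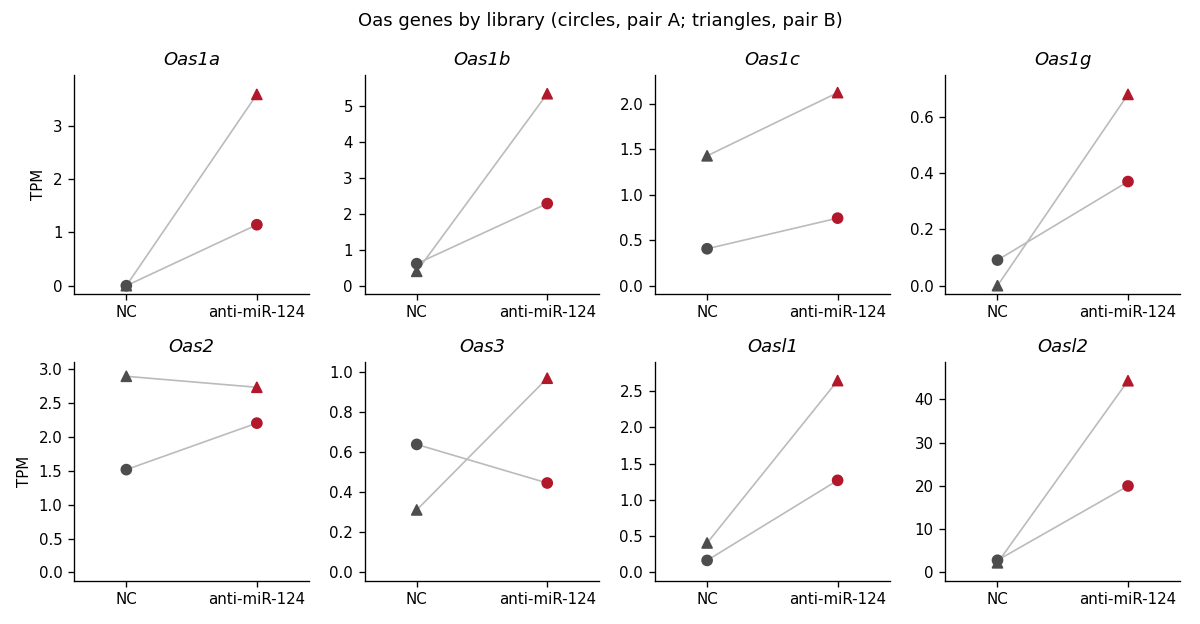
TPM (y axis) of each Oas gene in each library of either group, with circles and triangles for pair A and pair B and a line joining the libraries of a pair. For Oasl2, anti-A and anti-B sit at 20.0 and 44.3 TPM, above NC-A and NC-B at 2.82 and 2.23, while the lines of Oas2 and of Oas3 point in opposite directions.

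Oasl2 dominated these sums. It encodes an OAS-like protein that has kept synthetase activity. It had 47 counts in NC-A, 327 in anti-A, 38 in NC-B and 789 in anti-B. These are 2.82, 20.0, 2.23 and 44.3 TPM in the same order. The groups did not overlap, and the NC libraries differed little from each other. The log2 fold change fitted by edgeR (log2FC), with its standard error (SE), was 3.61 ± 0.44 (SE), a 12.2-fold higher level, and 2.94 without anti-B. The ratio was 6.56 in pair A (95% interval 4.82 to 9.11) and 19.9 in pair B (95% interval 14.4 to 28.3). These intervals are exact Clopper-Pearson intervals for the ratio of normalized counts, and they cover counting error only. Its share of the family's TPM was 45.1% in NC-A and 29.1% in NC-B, and 70.2% in anti-A and 71.0% in anti-B. Without Oasl2, the other 7 members still summed to 3.43 TPM in NC-A, 8.46 in anti-A, 5.44 in NC-B and 18.1 in anti-B, a ratio of 2.46 in pair A and 3.32 in pair B.

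Oasl1 encodes an OAS-like protein that lacks synthetase activity and is known to limit translation of the Irf7 mRNA. It had 2 counts in NC-A, 15 in anti-A, 5 in NC-B and 34 in anti-B. The levels were 0.166, 1.27, 0.406 and 2.64 TPM in the same order. Both antagomir libraries were above both controls, and the ratio was alike in the pairs. It was 7.08 in pair A (95% interval 1.65 to 63.8) and 6.51 in pair B (95% interval 2.53 to 21.3). The log2FC was 2.68 (SE 0.70), and 2.07 without anti-B. In the annotation Oasl1 overlaps the antisense gene Gm13822, which had no count in any library.

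Oas1a and Oas1g are synthetase genes of the Oas1 group with nearly the same sequence. Oas1a had no count in either NC library, and had 12 counts in anti-A and 41 in anti-B, which are 1.14 and 3.58 TPM. Against a floor of 3 counts over the NC group, its level was at least 16.8-fold higher in the anti-miR-124 group. Oas1g had 1 count in NC-A, 4 in anti-A, 0 in NC-B and 8 in anti-B. The groups did not overlap for either gene, though Oas1g rests on few reads. Summed over the group, 12 counts of Oas1g stood against 1, a ratio of 11.4 (95% interval 1.69 to 488). Of the 50-base words of the Oas1a transcript, 57.6% also occur in Oas1g transcripts, and 54.1% of those of Oas1g occur in Oas1a. The division of reads between the genes is therefore uncertain, and the sum of both is safer. It was 1 count in NC-A, 16 in anti-A, 0 in NC-B and 49 in anti-B.

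Oas1b had 6 counts in NC-A, 22 in anti-A, 4 in NC-B and 56 in anti-B. Its levels were 0.615, 2.29, 0.400 and 5.35 TPM in the same order, and the groups did not overlap. The full-length form of this gene is known for resistance to flaviviruses, and the transcript of C57BL/6 mice encodes a truncated protein. The ratio was 3.46 in pair A (95% interval 1.36 to 10.4) and 13.4 in pair B (95% interval 4.96 to 50.9), with a log2FC of 2.84 (SE 0.65), and 2.11 without anti-B. Only 1.34% of its 50-base words are shared with another Oas gene.

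Oas1c, another gene of the Oas1 group, differed less. It had 5 counts in NC-A, 9 in anti-A, 18 in NC-B and 28 in anti-B. The antagomir library was higher in each pair, but the groups overlapped, as NC-B was above anti-A. The ratios were 1.70 (95% interval 0.511 to 6.45) and 1.49 (95% interval 0.796 to 2.86), and both intervals include 1. The log2FC was 0.61 (SE 0.70), and without anti-B it was -0.33. Oas1c and Oas1b lie on either side of the same 16-base element, and their log2FC values were 0.61 and 2.84. A part of the element in either value was not tested. In the annotation, Oas1c overlaps the antisense gene Gm43069, and whether the counting used the strand is not given in the sources used here.

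Oas2 and Oas3 encode the larger synthetases, built from repeated OAS units. Oas2 had 42 counts in NC-A, 60 in anti-A, 82 in NC-B and 81 in anti-B. Its levels were 1.52, 2.20, 2.89 and 2.73 TPM in the same order. The groups overlapped, and the pairs differed from each other more than the groups did. The ratio was 1.35 in pair A (95% interval 0.894 to 2.05) and 0.946 in pair B (95% interval 0.687 to 1.30), and the log2FC was 0.12 (SE 0.33). It was -0.21 without NC-A and -0.03 without anti-B. Oas2 overlaps the unverified transcript Gm43068 on the opposite strand.

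Oas3 had 16 counts in NC-A, 11 in anti-A, 8 in NC-B and 26 in anti-B. The pairs thus went in opposite directions. The ratio was 0.649 in pair A (95% interval 0.272 to 1.49) and 3.11 in pair B (95% interval 1.37 to 7.96). The log2FC was 0.52 (SE 0.58), and it was -0.13 without anti-B. Oas3 held an ISRE core in its promoter window, as did Oas1a, Oas1g and Oas1c. Whether such matches bear on the levels of the members was not tested.

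**Figure D2:**
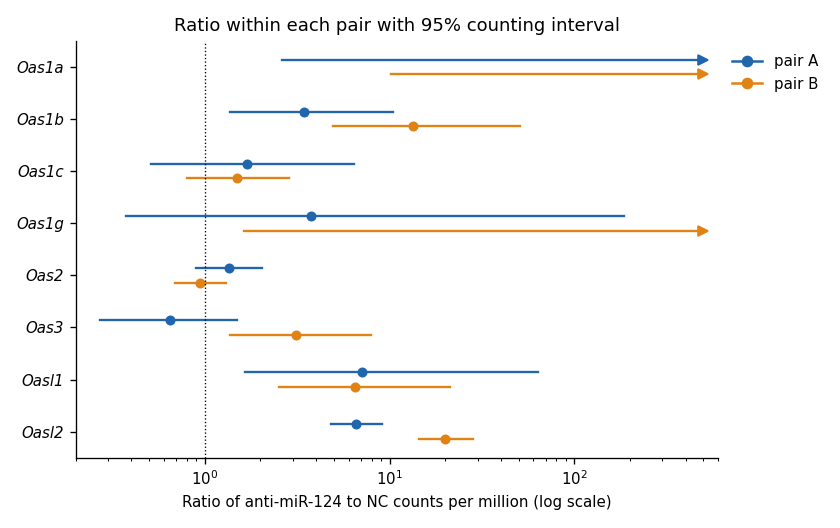
Ratio of anti-miR-124 to NC normalized counts (CPM) within pair A and pair B (x axis, log scale), with points for the ratio and lines for the 95% counting interval. Lines with arrowheads have no upper bound, because the NC library held no count. The intervals lie above 1 in both pairs for Oas1a, Oas1b, Oasl1 and Oasl2, and include 1 in both for Oas1c and Oas2.

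Across the family, 6 of the 8 members had higher normalized counts under the antagomir in both pairs, the exceptions being Oas2 and Oas3. Of the 7 members that passed edgeR's filter on low counts (all but Oas1g), 5 did so, while 22.8% of all 17766 tested genes did. Both antagomir libraries were above both controls for 5 of the 8 members, and for 4 of the 7 that passed the filter, beside 16.5% of tested genes. A log2FC of at least 1 was found for 4 of these 7, beside 1.42% of tested genes. The rule chose the members on this contrast. Oas1a, Oas1b and Oasl1 passed the filter through their counts in the anti-miR-124 group alone, so the shares and the median stand here as a description. The median log2FC of the 7 was 2.68, the value of Oasl1, against 0.000662 over all tested genes. Setting Oas1a to its bound cannot move this median, as the bound also lies above it. Of the 6 members with a SE, Oas1b, Oasl1 and Oasl2 lay at 2.68 to 3.61 and Oas1c, Oas2 and Oas3 at 0.12 to 0.61, so the median depends on counting Oas1a. By pair, with 0.5 counts added in each library, the median log2 ratio was 1.71 in pair A and 2.59 in pair B. Without anti-B the median log2FC was 1.02, over 6 members, as Oas1a no longer passed the filter, and without NC-A it was 2.26. No gene of the whole table passed edgeR's quasi-likelihood test at an adjusted p-value of 0.05 (0 of 17766, 0%), the smallest being 0.487, while 694 genes had an unadjusted p-value under 0.05. DESeq2 called 36 genes, of which 32 were higher under the antagomir. These p-values measure the spread between the libraries of a group, which nothing in the labels ties to separate animals.

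The order of the levels also differed between the groups. In the NC group, Oasl2 had the highest mean (2.53 TPM), followed by Oas2 (2.20 TPM) with an overlapping range. Oas1c (0.918 TPM) came after a gap, and its range overlapped that of Oas1b (0.507 TPM), which overlapped Oas3 (0.476 TPM), which in turn overlapped Oasl1 (0.286 TPM). Oas1g (0.0455 TPM) and Oas1a (no count) came last. The values from Oas1c downwards rest on at most 18 counts per library. In the anti-miR-124 group, Oasl2 (32.1 TPM) stood apart from all others. Oas1b (3.82 TPM), Oas2 (2.47 TPM), Oas1a (2.36 TPM), Oasl1 (1.95 TPM), Oas1c (1.43 TPM), Oas3 (0.708 TPM) and Oas1g (0.525 TPM) followed, each with a range that overlapped the next. Oas1a thus stood last in the NC group and behind Oasl2, Oas1b and Oas2 in the anti-miR-124 group, with neighbours that overlapped it in both.

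The other family genes of the Oas cluster had few counts. Oas1e had 13 counts in NC-A, 5 in anti-A, 14 in NC-B and 9 in anti-B. Both antagomir libraries were below both controls, with a log2FC of -1.01 (SE 0.49, edgeR adjusted p = 0.989), so that no difference was established. Oas1d, known from oocytes as an inhibitor of Oas1a, and Oas1h had 1 count each over all libraries, and Oas1f had none.

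The neighbours of the clusters were compared because the members lie close together. Within 150 kb of the Oas cluster, 10 of 14 other listed genes passed the filter, with log2FC values from -0.28 to 0.40 and a median of 0.03. The nearest tested genes were Dtx1, a Notch pathway ubiquitin ligase 18.7 kb before the cluster (0.14, SE 0.10), and Rph3a, a synaptic vesicle protein 18.9 kb after it (0.01, SE 0.14). Within 150 kb of the Oasl cluster, 8 of 17 passed, with log2FC values from -0.85 to 0.42 and a median of 0.04. The nearest tested genes were Gm9936 before it (-0.38, SE 0.26) and 2210016L21Rik after it (-0.10, SE 0.08). No neighbour passed edgeR's quasi-likelihood test, with adjusted p-values of at least 0.989, and the difference between the members and their neighbours was not tested. An unadjusted p-value under 0.05 was found for 0 neighbours of the Oas cluster and for 1 of the Oasl cluster, Ankrd13a (0.17, SE 0.07), which is named after its values were seen. DESeq2 called 0 of them.

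**Figure D3:**
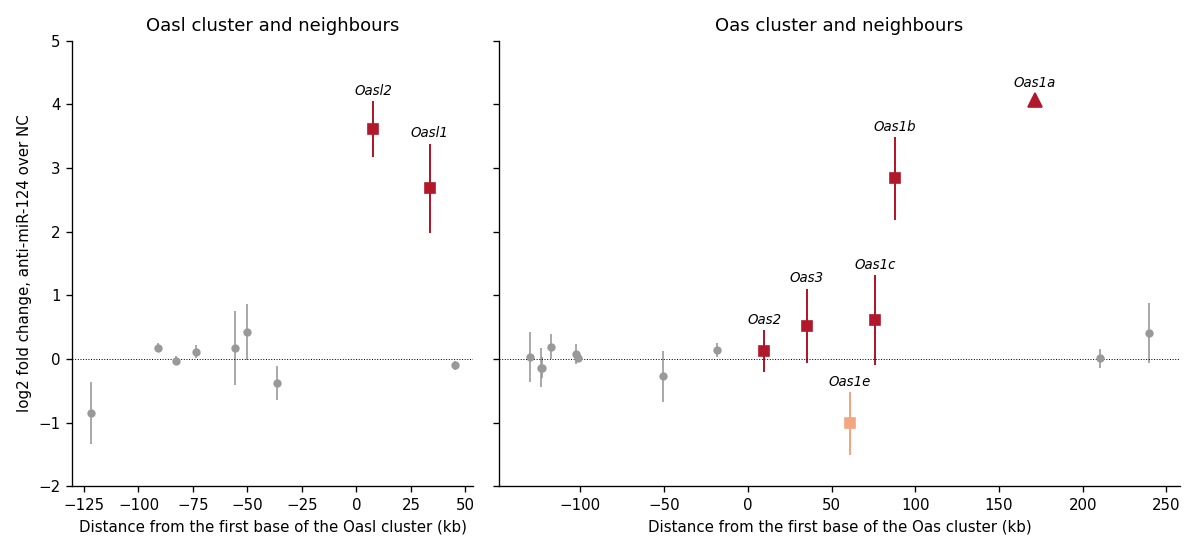
Fitted log2 fold change (y axis, bars for the SE) against the distance from the first base of the Oasl cluster or the Oas cluster (x axes, kb). Family genes are placed at their middle and neighbours at the edge nearest to the cluster. Squares are family genes, with Oas1e in a pale colour, the triangle is the lower bound of Oas1a, and grey points are tested neighbours. Oasl2, Oasl1, Oas1b and Oas1a lie above 2, and the neighbours lie between -0.85 and 0.42. Oas1g is missing because it did not pass the filter.

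The genes that act on 2-5A or bear on its effect had log2FC values from -0.11 to 0.51. Pde12, which encodes an enzyme that degrades 2-5A, had 524 counts in NC-A, 586 in anti-A, 633 in NC-B and 557 in anti-B, and the groups overlapped. Its log2FC was -0.08 (SE 0.10, edgeR adjusted p = 0.989). Akap7, whose product can degrade 2-5A as well, had a log2FC of -0.11 (SE 0.09). Enpp1, a phosphodiesterase that can also degrade 2-5A, was the least certain, at 0.51 (SE 0.56) and at -0.41 without anti-B. Abce1, which encodes a factor of ribosome recycling, was at -0.03 (SE 0.10). Of these 4 genes, which all passed the filter, 0 were called by edgeR, 0 by DESeq2 and 0 had an unadjusted p-value under 0.05. Pde12 lay at 27.8 to 33.0 TPM in all libraries, above every Oas gene in the NC group.

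Among other sensors and effectors of double-stranded RNA, several had values on the side of the Oas genes. Eif2ak2, which encodes the kinase PKR, had 141 counts in NC-A, 262 in anti-A, 124 in NC-B and 497 in anti-B, a log2FC of 1.42 (SE 0.27). Ifih1, which encodes the sensor MDA5, had 32, 136, 78 and 274 counts in the same order (1.82, SE 0.42). Dhx58, which encodes the helicase LGP2, had 6, 15, 3 and 40 counts in the same order (2.48, SE 0.71, and 1.71 without anti-B). In each of them anti-A and anti-B were above NC-A and NC-B. The adjusted p-values from edgeR's quasi-likelihood test were 0.957, 0.989 and 0.989. Of the 8 genes of this list, 7 passed the filter, 0 were called by edgeR and 4 had an unadjusted p-value under 0.05. Of these 7, 5 were higher in both pairs, beside 22.8% of all tested genes. The median log2FC of the 7 was 1.42, and 0.98 without anti-B. DESeq2 called 3 of them, Eif2ak2, Ifih1 and Ddx58, which encodes RIG-I and is named after its values were seen.

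The interferon signalling list held 10 genes, all of which passed the filter. Irf7, a regulator of interferon genes, had 15 counts in NC-A, 72 in anti-A, 11 in NC-B and 213 in anti-B, a log2FC of 3.34 (SE 0.58, edgeR adjusted p = 0.695). Without anti-B it was 2.46. Irf9, the DNA-binding part of ISGF3, had 137, 287, 131 and 501 counts in the same order, a log2FC of 1.47 (SE 0.23, edgeR adjusted p = 0.672). Stat2, its partner, differed by 0.33 (SE 0.12, edgeR adjusted p = 0.989). The receptor genes Ifnar1 and Ifnar2 were at 0.01 (SE 0.07) and -0.11 (SE 0.18). In this list 0 genes were called by edgeR and 3 had an unadjusted p-value under 0.05, and the median log2FC was 0.11. DESeq2 called 2, Irf7 and Irf9.

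The ligands themselves were almost without reads. Of 21 interferon genes, 17 had no count in any library, Ifnb1 among them, and none passed the filter. Their summed counts were 5 in NC-A, 1 in NC-B and 0 in both anti-A and anti-B. A count of 0 allows up to 3 counts in a library, so that low levels of these transcripts were not detectable at this depth. Over the 48 pathway genes outside the members, 23 passed the filter. Of these 23, 12 were higher under the antagomir in both pairs and 3 lower, beside 22.8% of all tested genes higher in both. The share of all tested genes lower in both was not counted. By edgeR's quasi-likelihood test 0 of the 23 were called, 7 had an unadjusted p-value under 0.05, and DESeq2 called 5. The lists were chosen with earlier results known, so these counts are a description.

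**Figure D4:**
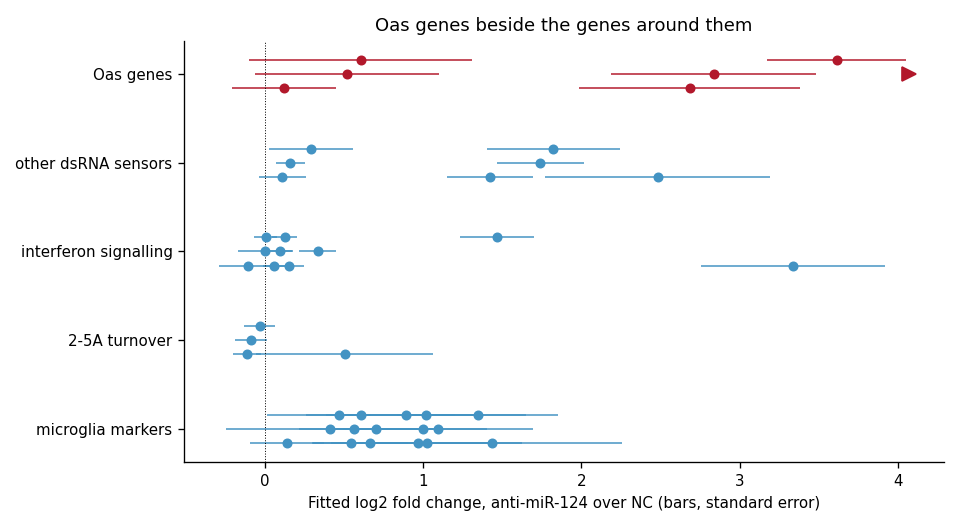
Fitted log2 fold change (x axis, bars for the SE) of tested genes in 5 groups, with the triangle for Oas1a at its lower bound. The Oas genes reach from 0.12 to above 4, whereas the 2-5A turnover genes lie between -0.11 and 0.51, and microglia markers between 0.14 and 1.44.

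Genes whose pattern over the 4 libraries was most like that of the family were sought among all tested genes. The measure was the root mean square distance between centred log2 CPM and the mean profile of the 7 tested members. The closest were Ifi47 (0.0690), an interferon-inducible GTPase, Rnf213 (0.0803), a ubiquitin ligase, and Irgm1 (0.0833), another interferon-inducible GTPase. Ifi35 (0.102), Xaf1 (0.115), Parp14 (0.120) and Gbp7 (0.125) followed, and the median distance of 17759 genes was 0.991. Rnf213 had 372 counts in NC-A, 1066 in anti-A, 423 in NC-B and 2487 in anti-B. Single members lay farther from the mean profile than these genes did, from 0.275 for Oasl1 to 0.898 for Oas2, so the profile describes the family's average rather than each gene.

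Markers of immune cells were distributed over the libraries in another way. Microglia are the resident macrophages of the retina. The summed level of 16 microglia and macrophage markers was 281 TPM in NC-A, 276 in anti-A, 228 in NC-B and 714 in anti-B. The median log2 ratio of these markers was -0.09 in pair A and 1.66 in pair B, where the Oas genes had medians of 1.71 and 2.59. In pair A the median of the Oas genes was thus well above 0, and that of the microglia markers was not. All 16 passed the filter and none was at 0. By edgeR's quasi-likelihood test 0 were called, 3 had an unadjusted p-value under 0.05, and DESeq2 called 0.

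Blood leukocyte markers summed to 43.5 TPM in NC-A, 27.5 in anti-A, 27.7 in NC-B and 448 in anti-B. Nearly all of the last value came from Lyz2, a lysozyme gene of myeloid cells that macrophages also express, with 140 counts in NC-B and 2646 in anti-B. Ptprc, which encodes the pan-leukocyte protein CD45, had 30 counts in NC-A, 28 in anti-A, 31 in NC-B and 129 in anti-B. The T cell marker Cd3e and the monocyte marker Ly6c2 were at 0 in all libraries. Ccr2, another monocyte marker, had no count in NC-A and anti-A, 2 in NC-B and 25 in anti-B. Of the 10 markers 2 passed the filter, with 0 called by edgeR, 1 at an unadjusted p-value under 0.05 and 0 called by DESeq2. Reactive glia markers had median log2 ratios of -0.29 in pair A and 2.46 in pair B. In pair B, where all these markers were high, 3 of the 6 members with a ratio in both pairs had a larger ratio than in pair A, namely Oas1b, Oas3 and Oasl2. In pair A, the summed microglia, leukocyte and reactive glia markers were 276, 27.5 and 89.6 TPM in anti-A and 281, 43.5 and 133 TPM in NC-A. The part of these cells in the values of the Oas genes was not tested in either pair.

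**Figure D5:**
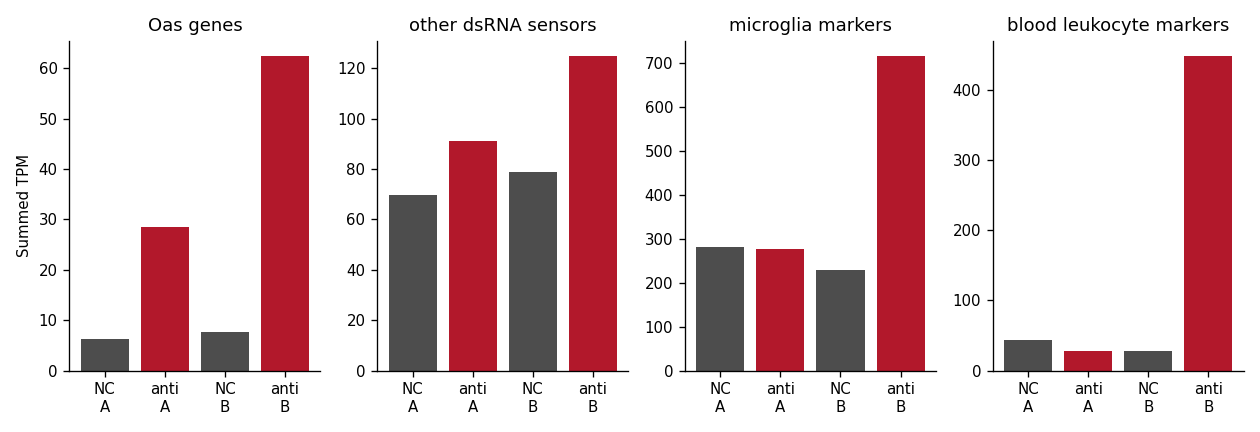
Summed TPM (y axes) of the Oas genes, other double-stranded RNA sensors, microglia markers and blood leukocyte markers in each library, with dark bars for NC and red bars for anti-miR-124, A and B for the pairs. The Oas genes are higher in anti-A and anti-B (28.4 and 62.3 TPM), while both kinds of immune cell markers are higher only in anti-B (714 and 448 TPM).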

How the data were processed

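The authors made directional RNA-Seq libraries and deposited read counts per gene, without normalization, with the gene length and position. The submitters' processing notes name HISAT2 and mm9, but of 36834 symbols matched to RefSeq, 99.8% overlapped their positions in GRCm38. The counter and its use of strand are not given in the sources used here. The 4 RPKM columns, made by the authors from the same counts, were not used.

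TPM was computed from counts and lengths. Counts were fitted with edgeR 4.0.16 (R 4.3.3): quasi-likelihood test, TMM normalization, filterByExpr, no covariate, 2-sided, Benjamini-Hochberg adjustment over 17766 genes, threshold 0.05. The fit was tested on simulated counts. Alternatives were DESeq2 1.42.0, other normalizations, filters and prior counts, a replicate block and leaving out each library. The numbers were not used as pairing in the main test, as the study's methods give no model with a block. Same-numbered libraries had deviations from their group means with a correlation of -0.16. With 2 libraries per group, the deviations within a group mirror each other, so this value cannot tell whether the libraries are paired. Libraries held 16317239 to 18726963 counts, and none were duplicates (chi-square per degree of freedom at least 3.48). Ratios within pairs carry exact Clopper-Pearson intervals at 95%, of counting error only. Other steps used Python 3.11.15 (numpy 2.4.6, pandas 2.3.3, scipy 1.17.1).

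The members and gene lists were chosen with earlier results of these data known. Named were all members, Abce1, Pde12, Irf7, Irf9, Stat2, Eif2ak2, the 2 tested genes of each pathway list with the largest log2 fold change, the nearest tested neighbour on each side of a cluster, and the 8 genes most like the family. The values of 2 genes under this rule are not reported here. The interferon receptors, single interferon genes and single markers were named in addition. Promoters came from RefSeq (GRCm38.p6), and transcripts for shared words and overlaps from GENCODE M21.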

Additional observations from a re-analysis of the deposited data

How the results depend on the processing

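The number of genes called over the whole table was 0, and 0 with the other normalizations, with a mean of at least 10 counts, with the lens markers left out and with the replicate block, which treats same-numbered libraries as paired (unadjusted p-values under 0.05 numbered 376 with it and 694 otherwise). It was 379 with no filter on low counts, 36 with DESeq2's Wald test, 160 with a replicate block whose numbers were crossed, and 0 to 256 when a library was left out, with 256 without anti-A, 57 without NC-B and 12 without anti-B. For the listed pathway genes these numbers were 0, and 7 with no filter, 5 with DESeq2, 6 with the crossed replicate block, 0 with the replicate block as numbered, and 0 to 5 with a library left out. A group left with 1 library is assumed to vary like the other. The median log2 fold change of the Oas genes was 2.68, 2.70 with the replicate block, and 1.02 to 3.10 with a library left out. The summed TPM ratio of 6.52 was 5.22 from CPM, 6.36 without lens markers, and 4.08 to 8.95 with a library left out. The number of members higher in both pairs was 6, and 5 to 8 had the higher mean with a library left out. The log2 fold change turned negative without anti-B for Oas1c (-0.33), Oas2 (-0.03) and Oas3 (-0.13), and without NC-A for Oas2 (-0.21). Without anti-B it was 2.94 for Oasl2, 2.11 for Oas1b and 2.07 for Oasl1. Without NC-B the log2 fold change of Oas1c was 1.68 and that of Oas2 was 0.58, and without NC-A that of Oas3 was 1.19. Of 90 values of the 6 members with a standard error over 15 settings, 78 stayed within 1 standard error. Oas1a has none, and its fitted value depends on the prior count. The crossed block, the fit without lens markers and the member counts with a library left out were added after the data were seen. The causes of these shifts were not tested. With 2 libraries per group and few counts per member, small differences in Oas1c, Oas2 and Oas3 were not detectable.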
